A study of Mus musculus with 8 samples.

Results

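The genes described here are 43 genes of the oligodendrocyte lineage and of myelin, given by name and looked up by symbol in the 8 count tables. All 43 were present among 24421 gene rows, and all 43 were among the 15438 genes that passed the filter on low counts. The libraries came from RNA purified on tagged ribosomes (translating ribosome affinity purification, TRAP) from the hypothalamus and medial amygdala of C57BL/6 mice. The 4 KO libraries came from mice with the genotype Otp-Cre; Cicflox/flox; ROSAfsTRAP, and the 4 Control libraries from mice with Otp-Cre; ROSAfsTRAP. Both groups thus carried the Cre and the tag allele, and only KO mice carried floxed Cic, the gene of the transcriptional repressor Capicua. The labels used here state no age, sex or number of mice per library, so the p-values speak only of the spread among these libraries, which may be technical. The Cre is driven from Otp, a gene of a neuronal lineage, so oligodendrocyte RNA in these libraries can come from cells outside the tagged population, and libraries of unpurified RNA were not used here.

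Oligodendrocytes wrap axons in myelin, a stack of membrane that is rich in cholesterol and galactolipids and held together by a small set of abundant proteins. The lineage runs from proliferating precursors (Cspg4, Vcan) through premyelinating cells (Gpr17, Bcas1, Enpp6) to myelinating cells, under transcription factors that specify the lineage (Olig1, Olig2, Sox10) and one that switches on the myelin programme (Myrf). In the hypothalamus and amygdala, as elsewhere in the brain, their transcripts mark this cell type among neurons and other glia, although several genes of the group (Nfasc, Cntn2, Ndrg1, Gsn, Qdpr) are also expressed by neurons or other cells.

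Of the 43 genes, 3 were lower in KO by the test across all genes and 0 were higher. The 3 were Pllp, Gjb1 and Cldn11, and Pllp, a membrane proteolipid of myelin, stood at 50.8% of the Control level. The direction was shared more widely than the calls, since 37 of the 43 had a negative log2 fold change and 6 a positive one, with a median of -0.27. Over all 15438 genes tested the median was 0.02 and 46.2% were negative. The 43 genes were chosen with earlier results of these data known, so the shares given here describe the list and do not test it. Called genes with lower values in KO made up 6.98% of the 43 and 0.0648% of all genes tested, and called genes with higher values 0.194% of all genes tested (edgeR quasi-likelihood test, Benjamini-Hochberg adjusted p under 0.05). At an unadjusted p of 0.05, 15 of the 43 (34.9%) were lower and 0 higher, where 4.53% of all genes tested were lower and 935 of the 15438 higher. Every KO library lay below every Control library for 8 of the 43 genes (18.6%, against 2.91% of all genes tested) and above for 0 (3.01% of all genes tested). DESeq2 called 7 of the 43 lower and 0 higher, beside 77 lower and 103 higher among all 15578 genes it tested. With limma-voom 2 were called lower and 0 higher, beside 5 lower and 17 higher among all 15438 genes.

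**Figure D1:**
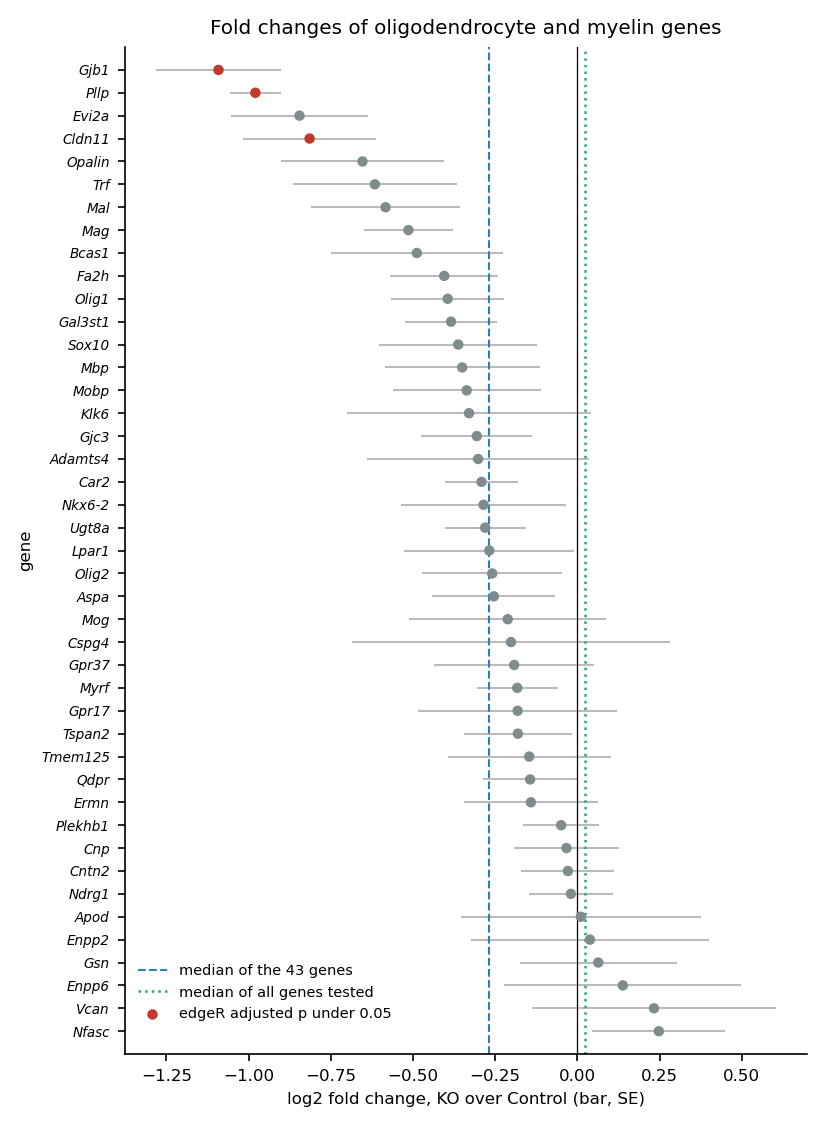
Log2 fold change of each of the 43 genes, KO over Control, from the edgeR fit (points), with the SE of the difference in mean log2 CPM (bars, 4 libraries per group). The 3 genes past an adjusted p of 0.05 are Gjb1, Pllp and Cldn11, and 37 of the 43 points lie left of 0 around a median of -0.27.

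Libraries held 33223878 to 57300362 gene counts, and the 43 genes took 0.263% to 0.473% of them. Cic, the targeted gene, was at 34.5 to 59.3 CPM (counts relative to library size, scaled with TMM factors) in KO and 72.4 to 103 CPM in Control (log2 fold change -1.10 at an edgeR adjusted p of 0.00220). In these purified libraries fewer oligodendrocytes, less RNA per oligodendrocyte and a smaller share of RNA from outside the tagged cells cannot be told apart. KO replicate 1 stood apart from the other libraries for this gene group. It had the lowest value of all 8 libraries for 28 of the 43 genes, a summed level of 2688 CPM, and a median log2 difference of -0.72 from the Control mean. KO replicates 2, 3 and 4 had summed levels of 4313, 3392 and 3820 CPM and medians of -0.06, -0.31 and -0.19. The Control libraries had summed levels of 4561, 3728, 4011 and 4604 CPM, so that only KO replicates 1 and 3 lay below all of them. Without KO replicate 1 the median over the 43 genes was -0.16, 32 of 43 were negative, and 1 gene, Pllp, was called. Pllp was also the 1 gene called when any other library except KO replicate 4 was left out.

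**Figure D2:**
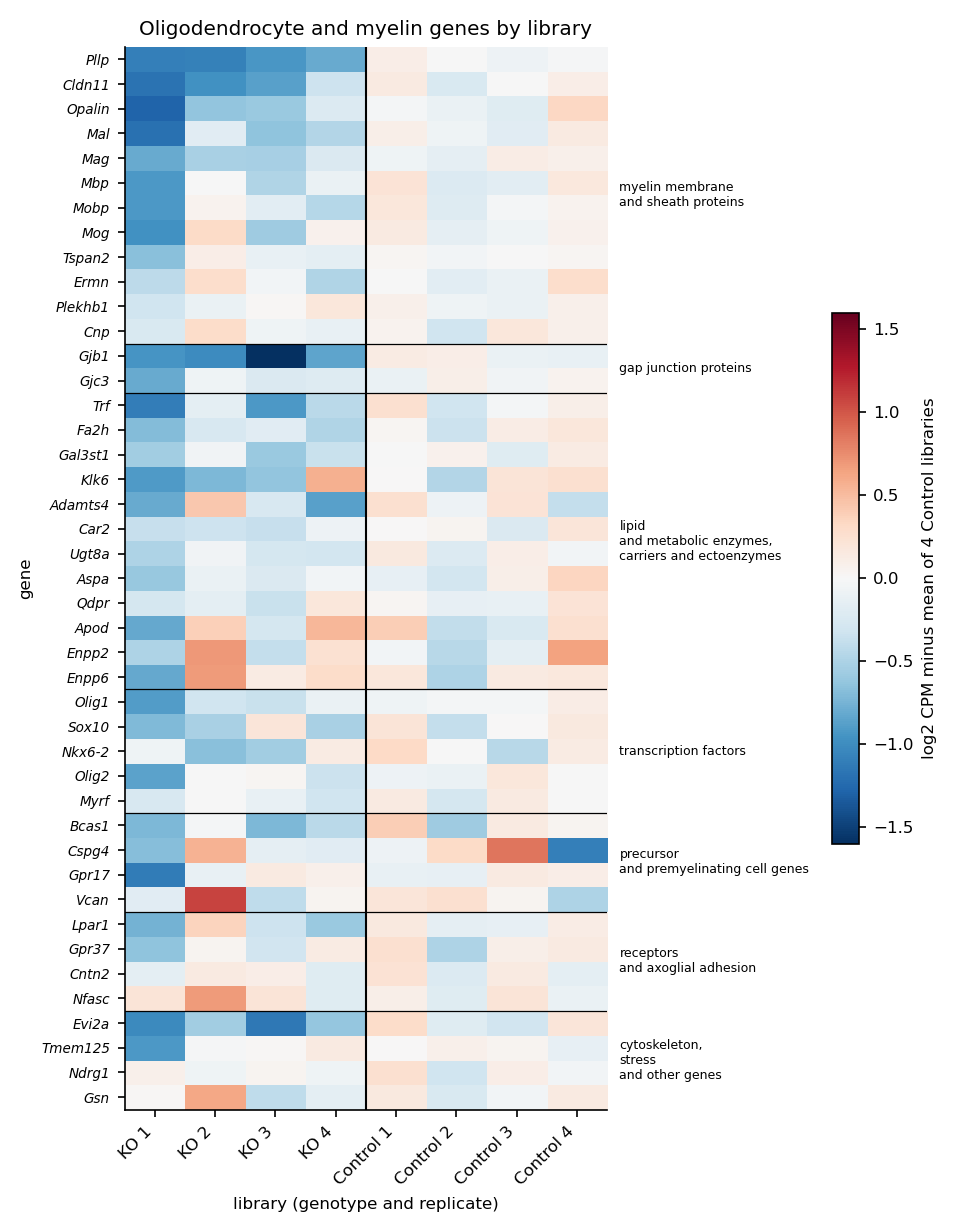
Log2 CPM of the 43 genes (rows, by role) in the 8 libraries (columns), minus the mean of the 4 Control libraries; blue is lower and red higher. KO replicate 1 is the lowest library for 28 of 43 genes, and the rows of Pllp, Cldn11, Gjb1, Mal, Mag, Opalin, Olig1 and Evi2a have every KO library below every Control library.

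The myelin membrane and sheath proteins were the group with most calls by number, while 1 of the 2 gap junction genes was called. All 12 genes of the myelin membrane and sheath group had a negative fold change (median -0.34). The test was passed by 2 (Pllp and Cldn11; 16.7%, against 0.0648% of all genes tested called lower) and not by 10. In 5 no KO library reached the Control range (41.7%, against 2.91% of all genes tested). Pllp encodes plasmolipin, a tetraspan proteolipid of the MAL family found in myelin. It measured 21.6, 21.75, 24.2 and 26.4 CPM in KO replicates 1 to 4 and 49.55, 46.03, 43.71 and 45.79 CPM in Control replicates 1 to 4. The ranges were far apart, with the highest KO library at 26.4 and the lowest Control library at 43.71 CPM, and the spread within each group was small. The means were 23.5 ± 2.28 and 46.3 ± 2.42 CPM (SD, n = 4 each; log2 fold change -0.98, SE 0.08, edgeR adjusted p = 0.000564). KO replicates 1 and 2 were at nearly the same level. Pllp passed in all 18 alternative fits, with log2 fold changes of -1.05 to -0.94 and adjusted p from 1.01e-11 to 0.00615. Pllp (ENSMUSG00000031775.5) lies on chromosome 8 from 94674894 to 94696278 on the minus strand of GRCm38, and 1128 of its 2083 exonic bases overlap exons of Gm45767 on the other strand. Whether the counting used strand is not known here, so the Pllp count may hold reads of both genes.

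Cldn11 encodes claudin 11, which forms the tight junctions between myelin lamellae. It measured 21.5, 24.99, 26.67 and 38.87 CPM in KO replicates 1 to 4 and 54.16, 41.37, 48.71 and 52.46 CPM in Control replicates 1 to 4. The groups did not overlap, but KO replicate 4 came within 3 CPM of Control replicate 2. The means were 28.01 ± 7.56 and 49.2 ± 5.68 CPM, so KO was at 57.0% of Control (log2 fold change -0.81 with SE 0.20 and edgeR adjusted p = 0.0375). The call was kept without KO replicate 4 and was lost when any one of the other 7 libraries was left out, with adjusted p of 0.0633 to 0.158. Cldn11 (ENSMUSG00000037625.7) spans 31149920 to 31164324 of chromosome 3 (plus strand).

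Gjb1 encodes connexin 32, which couples oligodendrocytes to each other and, through its partners, to astrocytes. It was the gene of the 43 with the most negative fold change and one of low level. It measured 4.267, 4.088, 2.623 and 4.559 CPM in KO replicates 1 to 4 and 9.054, 8.844, 7.624 and 7.565 CPM in Control replicates 1 to 4. Every KO library lay well under the lowest Control library, and KO replicate 3, not replicate 1, was the lowest. The means were 3.88 ± 0.863 and 8.27 ± 0.787 CPM, so KO was at 47.0% of Control (log2 fold change -1.09 with SE 0.19 and edgeR adjusted p = 0.0489). Leaving out KO replicate 4 kept the call, and leaving out any other library ended it, at adjusted p of 0.0761 to 0.233. Gjb1 (ENSMUSG00000047797.14) spans 101376378 to 101385629 of chromosome X (plus strand). For this reason genes that mark sex were read as well, and all 8 libraries held Y-linked Ddx3y at 27.3 to 46.2 CPM and Xist at 1.215 to 3.365 CPM. The other connexin of the 43, Gjc3 (connexin 29), was at 68.8 to 114.5 CPM over the KO libraries and 111.9 to 128.5 CPM over the Control libraries (log2 fold change -0.31 with SE 0.17 and edgeR adjusted p = 0.438).

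**Figure D3:**
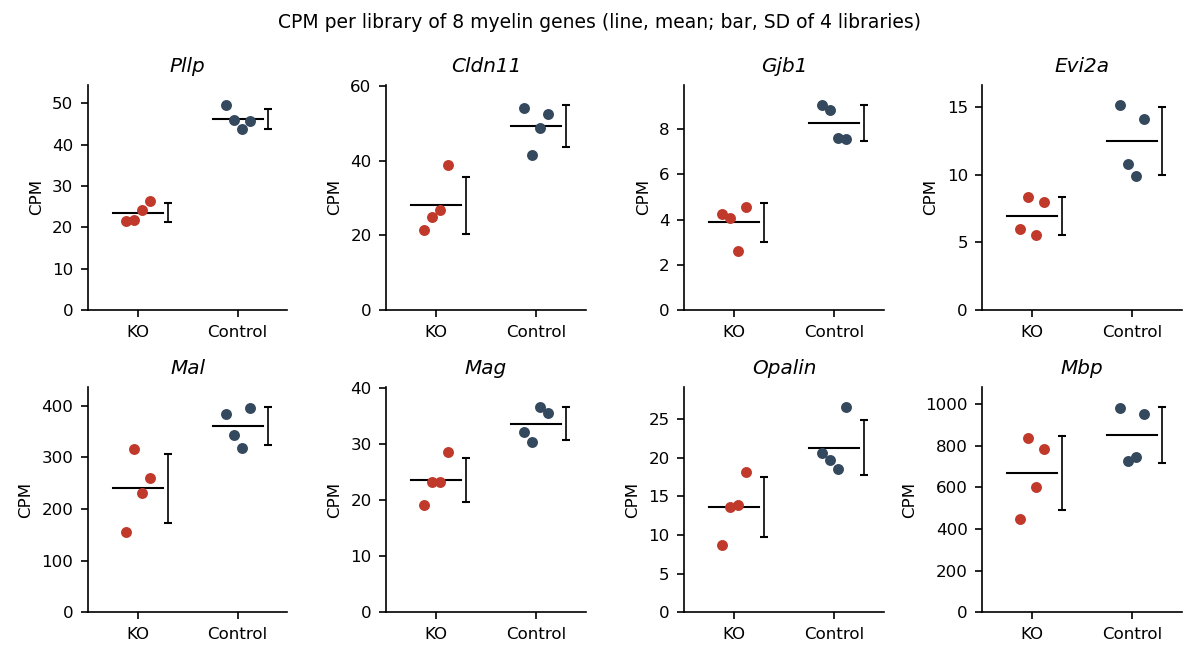
CPM of 8 genes in each library, with the mean (line) and SD (bar) of 4 libraries per group and each axis starting at 0. The KO and Control points do not overlap for Pllp, Cldn11, Gjb1, Evi2a, Mal, Mag and Opalin and overlap for Mbp, where KO replicates 2 and 4 lie inside the Control range.

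Because these 3 genes passed the test, the stretch before their transcription starts is shown, from 250 to 41 bases upstream of each start in the RefSeq promoter table of GRCm38.p6, written 5′ to 3′ on the strand of the gene. RefSeq promoters were matched for 30 of the 43 genes. Gjb1 has 4 starts in that table, and the first and the fourth are shown because they hold a match. Capitals mark matches, on either strand, to the motifs searched. These were Capicua octamers of the forms TGAATGAA and TGAATGGA, the SOX motifs ACAAAG and ACAATG, and the MYRF motifs CTGGCAC and CTGGTAC. Other forms of these motifs were not searched. The windows lie at chr8:94696283-94696492 (minus strand), chr3:31149670-31149879 (plus), chrX:101376126-101376335 (plus) and chrX:101383482-101383691 (plus).
Pllp: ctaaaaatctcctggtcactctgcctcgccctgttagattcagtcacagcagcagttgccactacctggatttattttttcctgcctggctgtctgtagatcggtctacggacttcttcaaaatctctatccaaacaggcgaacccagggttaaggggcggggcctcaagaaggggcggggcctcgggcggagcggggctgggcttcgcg
Cldn11: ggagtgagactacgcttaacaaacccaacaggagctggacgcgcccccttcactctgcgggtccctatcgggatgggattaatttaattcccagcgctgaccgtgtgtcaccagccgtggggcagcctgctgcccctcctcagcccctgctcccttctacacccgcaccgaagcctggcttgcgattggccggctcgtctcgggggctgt
Gjb1, start 1: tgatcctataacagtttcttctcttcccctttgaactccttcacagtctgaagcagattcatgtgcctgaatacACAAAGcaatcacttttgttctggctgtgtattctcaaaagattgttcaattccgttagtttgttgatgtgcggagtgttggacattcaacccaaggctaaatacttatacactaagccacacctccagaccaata
Gjb1, start 4: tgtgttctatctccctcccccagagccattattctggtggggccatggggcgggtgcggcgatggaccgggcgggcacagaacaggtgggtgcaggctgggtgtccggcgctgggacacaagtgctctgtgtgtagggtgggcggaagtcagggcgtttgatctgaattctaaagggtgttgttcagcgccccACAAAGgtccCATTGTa
Pllp and Cldn11 held none of these motifs in the window. Gjb1 held ACAAAG at its first start, with its first base 176 bases upstream, and at the fourth both ACAAAG, 57 bases upstream, and ACAATG on the opposite strand, 47 bases upstream. Of the 30 matched genes, taken at their first listed start, 7 held ACAAAG (Apod, Cnp, Gjb1, Klk6, Mag, Mobp and Opalin), against 14.2% of 32851 windows of the same 210 bases, and 5 held ACAATG, against 9.42%. The Capicua octamer TGAATGAA was found for 1 gene, Gpr37, against 0.922% of windows, and TGAATGGA for 0, against 0.816%. CTGGCAC was found for 3 genes (Cnp, Lpar1 and Mag), against 3.51%, and CTGGTAC for 1 (Mog), against 1.58%. A match of this kind describes the letters only.

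The other myelin membrane genes without overlap between groups did not pass the test. Mal encodes a proteolipid related to plasmolipin that sorts proteins to the myelin membrane, and per length it had the highest level of the 43 genes, 129.8 CPM per kb of exon in Control. It measured 156.3, 316.8, 230.5 and 259.4 CPM in KO replicates 1 to 4 and 384.7, 343.5, 317.9 and 396.5 CPM in Control replicates 1 to 4. KO replicate 2 reached to within 2 CPM of Control replicate 3, and KO replicate 1 lay far below the rest (log2 fold change -0.58 with SE 0.23 and edgeR adjusted p = 0.164). Mag encodes myelin-associated glycoprotein, the adhesion molecule of the innermost wrap that faces the axon. It measured 19.19, 23.36, 23.23 and 28.71 CPM in KO replicates 1 to 4 and 32.14, 30.39, 36.64 and 35.63 CPM in Control replicates 1 to 4 (log2 fold change -0.51 with SE 0.13 and edgeR adjusted p = 0.158). The Mag groups were separate, though by less than 2 CPM. Mag lies 5.63 Mb from Cic on chromosome 7, from 30899176 to 30914873 on the minus strand, and the floxed allele was in KO mice alone, so for Mag linked DNA and loss of Cic cannot be told apart. Opalin, a membrane glycoprotein of oligodendrocytes, was at 8.657 to 18.14 CPM over the KO libraries and 18.48 to 26.52 CPM over the Control libraries (log2 fold change -0.65 with SE 0.25 and edgeR adjusted p = 0.199).

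The other genes of myelin structure overlapped between the groups. Mbp, myelin basic protein, which compacts the cytoplasmic faces of the membrane, measured 446.1, 837.2, 602.2 and 782.9 CPM in KO replicates 1 to 4 and 978.9, 725.5, 746.3 and 950.7 CPM in Control replicates 1 to 4. KO replicates 2 and 4 lay inside the Control range and KO replicates 1 and 3 below it (log2 fold change -0.35 with SE 0.24 and edgeR adjusted p = 0.467). Mobp, a second small basic protein of compact myelin, was lowest in KO replicate 1 too, with KO at 151.3 to 296.5 CPM and Control at 246.4 to 323 CPM (log2 fold change -0.34 with SE 0.22 and edgeR adjusted p = 0.473). Mog, the surface glycoprotein of the outer wrap, ranged most widely in KO, from 30.05 CPM in replicate 1 to 72.84 CPM in replicate 2, around a Control range of 53.3 to 64.85 CPM (-0.21, SE 0.30). The fold changes nearest to 0 in this group were those of Cnp, the cyclic nucleotide phosphodiesterase of non-compact myelin (177 ± 29.9 and 181 ± 26.1 CPM, log2 fold change -0.03, SE 0.16), and Plekhb1, a pleckstrin-domain protein (256 ± 36.7 and 265 ± 17.8 CPM, -0.05, SE 0.12). Ermn, ermin, a cytoskeletal protein of late myelination (-0.14), and the tetraspanin Tspan2 (-0.18) lay between. For Tspan2, 3 of 4 KO libraries were below all Control libraries (244.8 to 258.6 CPM), and KO replicate 2, at 273.2 CPM, was above them all.

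Of the 12 enzymes, carriers and secreted or surface enzymes, 9 had a negative and 3 a positive fold change (median -0.29), 0 passed the test, and 12 had overlapping groups. By edgeR's unadjusted p under 0.05, 4 were lower (33.3%, against 4.53% of all genes tested) and 0 higher (935 of all 15438 genes tested). Of the 12, DESeq2 called Trf alone. Trf encodes transferrin, the iron carrier that oligodendrocytes make, and 2108 of its 3320 exonic bases overlap exons of Gm20425 on the same strand, so its count is uncertain where counting could split their reads. It measured 76.16, 147.4, 86.43 and 121.5 CPM in KO replicates 1 to 4 and 194.7, 131.5, 160 and 174.9 CPM in Control replicates 1 to 4. Only KO replicate 2 lay above the lowest Control library (log2 fold change -0.62 with SE 0.25 and edgeR adjusted p = 0.190, and 0.0499 with DESeq2). Fa2h, which makes the hydroxylated fatty acids of myelin galactolipids, had 51.2 ± 7.94 CPM in KO against 67.7 ± 10.3 CPM in Control (log2 fold change -0.40 with SE 0.16 and edgeR adjusted p = 0.292). The next steps of that pathway, the galactosyltransferase Ugt8a (-0.28, SE 0.12) and the sulfotransferase Gal3st1 (-0.38, SE 0.14), had 3 of 4 KO libraries below all Control libraries each, and neither passed (edgeR adjusted p = 0.463 and 0.660). Car2, carbonic anhydrase 2, was at 179.5 to 218.7 CPM over the KO libraries and 197.4 to 265 CPM over the Control libraries (log2 fold change -0.29 with SE 0.11 and edgeR adjusted p = 0.390). Aspa, which cleaves N-acetylaspartate (-0.25), and Qdpr, which regenerates the pterin cofactor (-0.14), were nearer to 0, and the proteases Klk6 (-0.33, SE 0.37) and Adamts4 (-0.30, SE 0.34) were low and variable.

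Enpp2, Apod and Enpp6 did not share the negative direction, at log2 fold changes of 0.04, 0.01 and 0.14 (SE 0.36 each). Enpp2 encodes autotaxin, which is also abundant in the choroid plexus, and measured 106.9, 244.5, 115.7 and 179.1 CPM in KO replicates 1 to 4 and 146.9, 111.4, 135.3 and 235.4 CPM in Control replicates 1 to 4. The high libraries were KO replicates 2 and 4 and Control replicate 4. These were also the 3 highest for the choroid plexus marker Ttr (transthyretin), at 176.5, 125.3 and 518.6 CPM against 3.834 to 60 CPM in the other 5. The same 3 libraries, in that order of naming, were the highest for the choroid plexus markers Slc4a5 (3.031, 1.448 and 3.962 CPM) and Kcne2 (0.7119, 1.109 and 2.216 CPM), both of low level. For the remaining choroid plexus markers the 3 highest libraries were not the same. KO replicate 4 was the lowest of the 8 libraries for Clic6 (4.528 CPM), and Control replicate 2 was the second highest for Folr1 (0.7997 CPM). The part of choroid plexus RNA in the Enpp2 values was not tested. Apod, apolipoprotein D, varied in a similar range, from 79.21 to 201.8 CPM in KO and from 106.3 to 182.5 CPM in Control. Enpp6, a choline phosphodiesterase of premyelinating cells, was at 3.525 to 10.1 CPM over the KO libraries and 4.446 to 7.137 CPM over the Control libraries.

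All 5 transcription factors had a negative fold change (median -0.29), and 0 passed the test. Olig1, a basic helix-loop-helix factor of the lineage, was the one with no overlap, at 52.15, 77.99, 75.57 and 89.86 CPM in KO replicates 1 to 4 and 92.46, 95.22, 95.06 and 105.6 CPM in Control replicates 1 to 4. KO replicate 4 was within 3 CPM of the lowest Control library (log2 fold change -0.39 with SE 0.17 and edgeR adjusted p = 0.307). Its relative Olig2 overlapped, at 10.57 to 19.47 CPM and 17.83 to 21.73 CPM (-0.26, SE 0.21). Sox10, which acts with both on myelin genes, was at 13.2, 14.95 and 15.0 CPM in KO replicates 1, 2 and 4 and at 24.67 CPM in replicate 3, while Control ran from 16.56 to 24.89 CPM (log2 fold change -0.36 with SE 0.24 and edgeR adjusted p = 0.526). Myrf, the regulator of myelin genes in mature cells, had 23.7 ± 2.29 and 26.9 ± 3.65 CPM (-0.18, SE 0.12), and Nkx6-2 had 5.004 ± 1.34 and 6.08 ± 1.31 CPM (-0.29, SE 0.25).

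The genes of precursor and premyelinating cells were mostly low and did not pass. Bcas1, which marks cells that are starting to myelinate, had 33.9 ± 8.03 CPM in KO against 47.5 ± 12.3 CPM in Control (log2 fold change -0.49 with SE 0.26 and edgeR adjusted p = 0.334), while Control replicate 2, at 30.95 CPM, lay inside the KO range. Gpr17, a receptor of premyelinating cells, was at 4.102 CPM in KO replicate 1 and 8.29 to 9.922 CPM in the other KO libraries, next to 8.186 to 9.954 CPM in Control (-0.18, SE 0.30). Cspg4, the NG2 proteoglycan of precursors, and Vcan, versican, had 2.31 ± 0.874 and 2.67 ± 1.36 CPM and 5.09 ± 2.69 and 4.33 ± 0.928 CPM in KO and Control (-0.20, SE 0.48, and 0.23, SE 0.37). Per length these were the lowest of the 43, at 0.2234 and 0.2993 CPM per kb of exon in Control.

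Of the receptors and axoglial adhesion genes, 3 were negative and 1 positive, and 0 passed. Nfasc, neurofascin, which has a glial form at the paranode and neuronal forms at the node and axon initial segment, was at 242.9, 338.7, 242.4 and 183.7 CPM in KO replicates 1 to 4 and 225, 184.9, 243.5 and 195.3 CPM in Control replicates 1 to 4 (log2 fold change 0.25 with SE 0.20 and edgeR adjusted p = 0.617). Gene counts do not separate these forms. Cntn2, an axonal and glial adhesion molecule of the juxtaparanode, lay near 0 (-0.03, SE 0.14), and the receptors Lpar1 (-0.27, SE 0.26) and Gpr37 (-0.19, SE 0.24) overlapped between groups. Among the remaining genes, Evi2a, a membrane protein gene within an intron of Nf1, measured 6.019, 8.313, 5.518 and 7.978 CPM in KO replicates 1 to 4 and 15.13, 10.77, 9.901 and 14.1 CPM in Control replicates 1 to 4. Its groups were separate, and KO was at 55.8% of Control, although its exons overlap those of Evi2 on the same strand and counting could split their reads (log2 fold change -0.84 with SE 0.21 and edgeR adjusted p = 0.100, and 0.0106 with DESeq2). Ndrg1 (-0.02, SE 0.13), Gsn, gelsolin (0.06, SE 0.24), and Tmem125 (-0.15, SE 0.25) had overlapping groups.

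A further 48 genes of the lineage that are not among the 43 were read in the same fit. This list too was chosen with earlier results of these data known, so its counts are a description. None of the 48 passed edgeR's adjusted threshold, and 29 were negative and 19 positive. At an unadjusted edgeR p of 0.05, 6 were lower (12.5%) and 1 higher. Over all 15438 genes tested, 699 were lower (4.53%) and 935 higher. DESeq2 called 3 of the 48 lower, beside 77 lower among all 15578 genes it tested. The 30 genes of myelin and mature cells had 21 negative fold changes and a median of -0.25. In 5 of them (16.7%, against 2.91% of all genes tested) the groups did not overlap, with KO below. The 18 genes of precursors and lineage regulators had 8 negative and 10 positive and a median of 0.05. The 5 of smallest p were Anln, the septin-binding anillin (log2 fold change -0.54 with SE 0.10 and edgeR adjusted p = 0.0875), Tmem88b (-0.62, SE 0.18, 0.0884), the integrin Itgb4 (-0.80, SE 0.11, 0.138), the glycosyltransferase Galnt6 (-0.74, SE 0.25, 0.2) and C1ql1, a secreted C1q-like protein (0.47, SE 0.17, 0.264). The precursor receptor Pdgfra had 3.16 ± 0.624 and 4.21 ± 1.19 CPM (log2 fold change -0.42 with SE 0.24 and edgeR adjusted p = 0.665).

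Markers of other cells were read beside these results. The Otp-lineage list (Otp, Sim1, Nhlh2, Avp, Oxt, Trh, Sst) had 7 of 7 positive fold changes and summed to 1119 to 2031 CPM over the KO libraries and 979 to 1040 CPM over the Control libraries, and Otp itself was at 2.283 to 8.554 CPM. Microglia markers had 11 of 12 negative fold changes and summed to 31.57 to 52.43 CPM over the KO libraries and 28.63 to 83.37 CPM over the Control libraries, with Cx3cr1 at 1.163 to 5.357 CPM over all libraries. Ependymal and tanycyte markers had 9 of 10 negative and summed to 34.32 to 55.88 and 45.14 to 63.92 CPM. Astrocyte markers had 8 of 12 negative and summed to 1393 to 1934 and 1456 to 1930 CPM, with Gfap at 61.5 to 131.3 CPM over all libraries. Endothelial and mural markers had 7 of 12 negative and summed to 11.21 to 38.75 and 12.81 to 53.21 CPM. Cldn5 stayed at or under 1.448 CPM, and Tek was at 0 in 1 library. The median log2 fold change was -0.51 for microglia markers, -0.31 for ependymal and tanycyte, -0.28 for endothelial and mural, and -0.07 for astrocyte markers. For the 43 genes it was -0.27. Choroid plexus markers had 4 of 10 negative and meningeal markers 5 of 8, and general neuronal markers had 6 of 8 positive, with synapsin gene Syn1 higher in KO (562 ± 79.4 against 360 ± 50.5 CPM, edgeR adjusted p = 0.0476). Of these marker genes Syn1 was the one called. Syn1, Tek, Clic6, Slc4a5 and Kcne2 were named after their values were seen. The part of a larger neuronal share in the values of the 43 genes was not tested. KO replicate 1, lowest for the 43 genes, was also the lowest of the 8 libraries for the summed astrocyte, endothelial and mural, and ependymal markers. Within the Otp-lineage list it was the highest library for Otp (8.554 CPM), Sim1 (31.64 CPM), Nhlh2 (22.12 CPM) and Trh (50.77 CPM). It was the lowest for Sst (430.8 CPM) and at neither end for Avp and Oxt. Its sum over that list, 1119 CPM, was the lowest of the 4 KO libraries. With the mean level of the astrocyte, microglia, vascular and ependymal markers as a covariate, the median over the 43 genes was -0.20, 34 of 43 were negative and Pllp alone was called, while Cldn11 had an adjusted p of 0.0579 and Gjb1 of 0.0992.

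**Figure D4:**
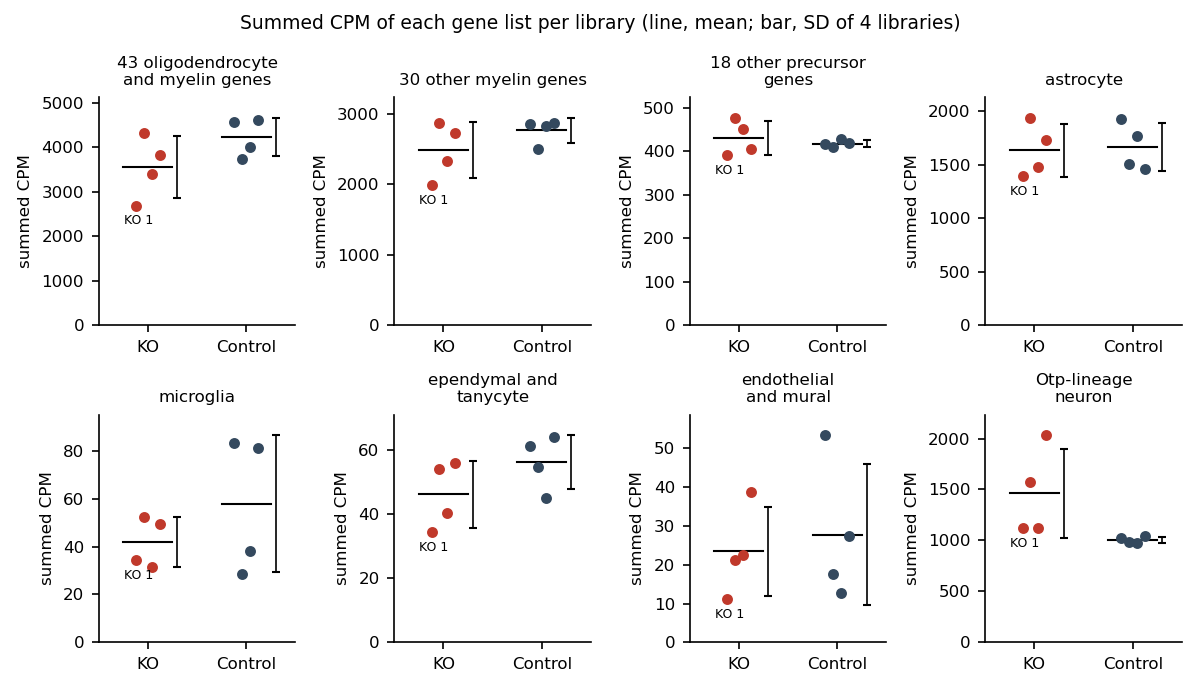
Summed CPM of 8 gene lists in each library, with the mean (line) and SD (bar) of 4 libraries per group and each axis starting at 0. KO replicate 1 is marked, and at 2688 CPM it is the lowest library for the 43 genes, while the Otp-lineage sums of KO (1119 to 2031 CPM) lie above those of Control (979 to 1040 CPM).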

How the data were processed

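The authors deposited raw counts for each gene symbol in each library. The submitters' processing notes name TopHat2 2.0.9, HTSeq, DESeq2 and the build mm10. Annotation, filters and strand setting: not given in the sources used here. RNA was amplified from 10 ng with poly(A) and random priming before library preparation, per the labels' protocols, with no molecular identifiers. The counter rows of the tables list alignments to several places apart from the genes, so near-identical genes can be undercounted. Such alignments made up 63.3% (Control replicate 1) to 81.9% (KO replicate 4) of all counts, counter and spike-in rows included. The Rn45s row took 5.52% (KO replicate 3) to 11.5% (Control replicate 2) of gene counts.

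The 92 spike-in rows and 5 counter rows were left out. Genes passing filterByExpr (minimum count 10, minimum total 15) were scaled by TMM and compared between KO and Control in a fit of the 8 libraries, without covariates, by edgeR 4.0.16 quasi-likelihood (robust) in R 4.3.3, with Benjamini-Hochberg adjustment over 15438 genes and a threshold of 0.05. SE belongs to the difference in mean log2 CPM (prior count 2), and levels per kb use exonic length in GENCODE vM21. The model was tested on simulated data. Alternatives used DESeq2 1.42.0, limma 3.58.1, other scalings and filters, a replicate block, covariates and leaving out each library. The members and lists were chosen with earlier results of these data known. By the naming rule, values in every library are given for the called genes, those that any alternative called, the 3 of next smallest p and the 2 of highest CPM; of other lineage genes, the 5 of smallest p and Pdgfra are named, and of other cell markers the first 2 of each list at most. Olig1, Enpp2, Nfasc and Sox10 were given library values after these were seen. Beyond the naming rule, values are also given for the cell markers Nhlh2, Trh, Sst, Syn1, Tek, Clic6, Slc4a5 and Kcne2. The result for 1 gene of the naming rule is not reported here. No library repeats another, since in each of 28 pairings chi-square was at least 25.9 per degree of freedom.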

Additional observations from a re-analysis of the deposited data

Results flagged for a closer look

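Of 86 sets of 4 libraries (43 genes in 2 groups), 4 held a library that stood far from the other 3, with a gap to its neighbour of more than 0.829 of the range of the set; chance gives about 1 set in 20. Car2 was at 218.7 CPM in KO replicate 4, with the other KO libraries between 179.5 and 185.1 CPM. Enpp6 was at 4.446 CPM in Control replicate 2, with the others between 6.936 and 7.137 CPM. Klk6 was at 6.808 CPM in KO replicate 4, with the others between 2.432 and 2.945 CPM. Sox10 was at 24.67 CPM in KO replicate 3, with the others between 13.17 and 15 CPM.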

How the results depend on the processing

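Of the 43 genes, 3 were called lower in KO, against 7 with DESeq2 (Cldn11, Evi2a, Gjb1, Mag, Mal, Pllp and Trf), 1 with the other-cell covariate and 1 to 3 when 1 library was left out. Leaving out any library but KO replicate 4 left Pllp alone; fewer libraries entered those fits. The number called higher was 0 in all 18 alternatives. Their median log2 fold change stayed negative throughout, from -0.32 to -0.16 over the fits that left out 1 library (-0.16 without KO replicate 1). Of the 48 other genes of the lineage 0 were called, against 3 with DESeq2 (Anln, Itgb4, Tmem88b), 1 with the replicate block (Tmem88b), 1 without KO replicate 3 (Tmem88b) and 0 to 1 when 1 library was left out. Over all genes 40 were called, against 180 with DESeq2, 22 with limma-voom, 26 with total counts only, 65 with the replicate block and 14 to 53 when 1 library was left out. Gjb1 also missed the threshold with total counts only (adjusted p = 0.0537) and with limma-voom (0.0603). The cause of these shifts was not tested. With the replicate number as a block, 3 of the 43 genes were again called. Same-numbered libraries are not stated to be paired, and their deviations from the group means correlated at -0.048 to 0.103. Some genes under about 5 CPM, such as Cspg4 (SE 0.48), could show only large changes, while Gal3st1, also under 5 CPM, had an SE of 0.14.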
